A study of Saccharomyces cerevisiae with 12 samples.

Results

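The comparison described here is the strain by aspirin interaction, that is, how far the response to aspirin of EG110 cells departs from that of EG103 cells, for each gene of *Saccharomyces cerevisiae*. It used all 12 arrays of the series, 3 biological replicates in each of 4 groups. EG103 is the wild type, a MATα GAL+ strain with the alleles ura3-52, trp1-289a, his3Δ1 and leu2-3 112, and EG110 is EG103 with sod2 Δ::TRP1, so that EG110 cells lack manganese superoxide dismutase (MnSOD) and also carry the TRP1 marker. Cells of both strains grew aerobically for 48 h on ethanol medium, either untreated or with 15 mM aspirin (acetylsalicylic acid), and only the aspirin medium is described as brought to pH 5.5 with Trizma base, so that aspirin and this adjustment cannot be told apart. Each array gives 1 log2 expression value per probe set, a group of short probes for 1 transcript. Of 10928 probe sets, 5716 carry an identifier of an *S. cerevisiae* gene and entered the fit. The other 4999 without such a gene and 213 controls were left out. Among the 5716, 140 match several genes at once, and 16 genes are measured by more than 1 probe set. Where a strain's name stands for a genotype below, any difference between the strains other than sod2, including the TRP1 marker, cannot be told apart from it.

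MnSOD removes superoxide in the mitochondrial matrix, where the respiratory chain produces it. Yeast on ethanol oxidizes ethanol to acetate, activates acetate to acetyl-CoA, feeds acetyl groups to mitochondria and the glyoxylate cycle, and respires. In the presence of glucose, repressors such as Mig1 and Mig2 switch these genes off, and genes for hexose transporters are induced. Weak organic acids enter cells undissociated, and yeast answers them with the exporter Pdr12 and the plasma membrane proton pump.

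The labels held for the deleted gene. *SOD2* (YHR008C) read 4.99, 4.62 and 4.50 in untreated and 4.81, 4.78 and 4.73 in aspirin-treated EG110 cells, and 14.29, 14.40 and 14.22 in untreated and 14.35, 14.30 and 14.19 in aspirin-treated EG103 cells. The EG110 arrays thus lay at the level of probe sets without an *S. cerevisiae* gene, 95% of whose single array values were below 5.39. The difference between the aspirin effects of *SOD2* was not called (0.09, SE 0.148). *MF(ALPHA)1*, which encodes the alpha-factor pheromone of MATα cells, had group means between 13.10 and 14.15. Array medians over the 5716 probe sets were 11.15 to 11.18 in EG110 and 11.36 to 11.39 in EG103, an offset between strains that cancels in each aspirin effect but not in a level compared between strains. Within groups the median SD over probe sets was 0.055 to 0.087. Array weights estimated from the residuals were lowest for untreated EG110 replicate 3 (0.242) and aspirin-treated EG103 replicate 3 (0.315).

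In the text below an aspirin effect is the mean log2 value of aspirin-treated cells minus that of untreated cells of the same strain, and a difference is the EG110 effect minus the EG103 effect, so that a negative difference means that expression went down more, or up less, in EG110. A difference was called at a Benjamini-Hochberg adjusted P below 0.05 over the 5716 probe sets in the limma fit and a size of at least 1.5-fold, and the same thresholds applied to the aspirin effect in each strain. "Rose" and "fell" are used of a gene in a strain only where its effect was called. An exact permutation test of 3 arrays against 3 cannot go below P = 0.1, so the tests rest on the spread pooled over the 4 groups and moderated across probe sets. The interaction shares its arrays with both within-strain effects, which share none with each other. The median SE of a difference was 0.0992.

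The aspirin effect differed between the strains for 662 probe sets (11.6% of those tested), 298 of them higher (5.21%) and 364 lower (6.37%) in EG110. At least a 2-fold difference was found for 81 higher and 125 lower probe sets. The median difference over all 5716 was 7.83e-05. Most differences came from EG110: of the 298 higher ones, 206 rose in EG110 only, 14 fell in EG103 only, 8 rose in EG110 and fell in EG103, 3 moved in the same direction in both strains, and 67 passed the thresholds in neither strain alone. Of the 364 lower ones, 223 fell in EG110 only, 30 rose in EG103 only, 12 fell in EG110 and rose in EG103, 5 moved in the same direction in both, and 94 were called in neither. For comparison, 12% of all probe sets were called in EG110 (5.9% rose and 6.09% fell) and 2.61% in EG103 (1.75% rose). The absolute effect was larger in EG110 for 270 of the 298 and 310 of the 364. Among the higher probe sets the median effect was 0.75 in EG110 and -0.07 in EG103, and among the lower ones -0.73 and 0.12. Genes are grouped below by function in 34 lists, which were drawn up with earlier results of these data known, so that a list's count is a description to be read against the 11.6% called over all probe sets.

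**Figure D1:**
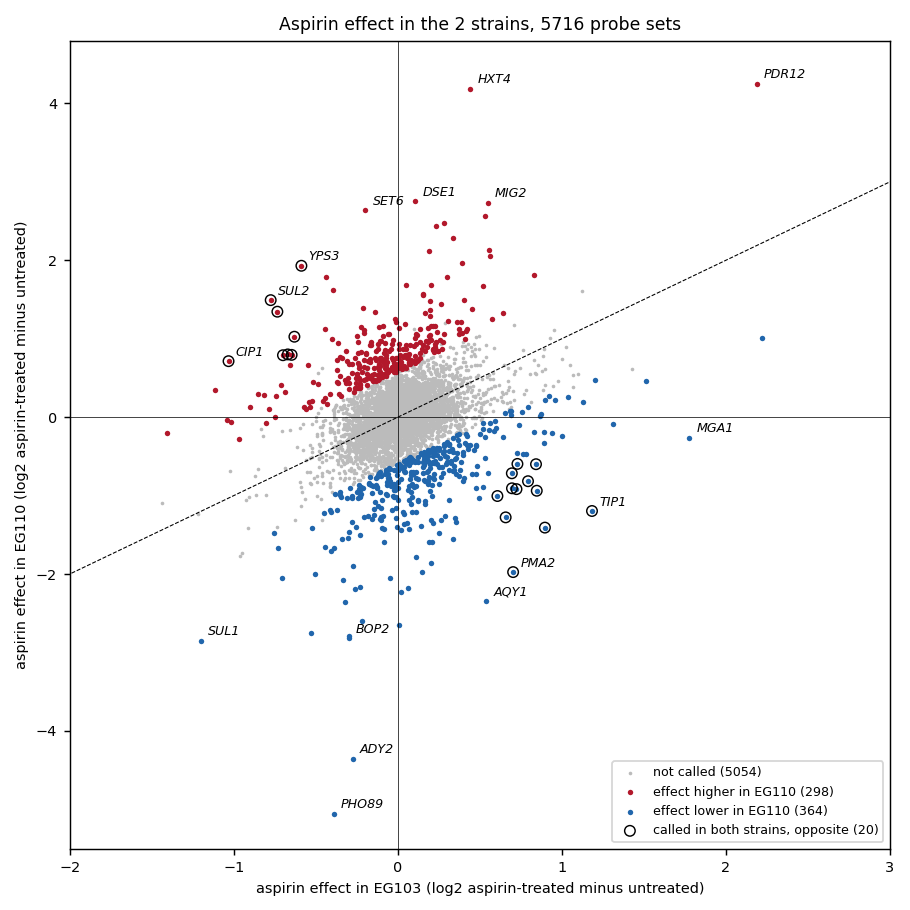
Aspirin effect (log2, aspirin-treated minus untreated) in EG103 on the x axis and in EG110 on the y axis for 5716 probe sets, with the 298 higher differences in red, the 364 lower in blue, and circles around the 20 probe sets called in both strains in opposite directions. The dashed line marks equal effects, and the coloured points spread mainly along the EG110 axis, from PHO89 (-5.05) to PDR12 (4.25), with a narrower spread along the EG103 axis.

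Genes of the list from ethanol to acetyl-CoA had some of the largest differences, and none was called higher in EG110. The list holds the acetate transporter gene *ADY2* and its relatives *ATO2* and *ATO3*, whose part in acetate transport was not tested. *ADY2* (YCR010C), a plasma membrane acetate transporter, read 12.53, 12.82 and 12.38 in untreated and 8.33, 7.98 and 8.35 in aspirin-treated EG110 cells, and 13.37, 13.49 and 13.47 in untreated and 12.89, 13.08 and 13.54 in aspirin-treated EG103 cells. Only the aspirin-treated EG110 arrays were low, and the gene fell 20.5-fold in EG110, with an effect of -0.27 in EG103 and a difference of -4.08 (SE 0.225, adjusted P = 3.55e-07). Its relative *ATO3* (YDR384C) read 13.41, 13.56 and 13.17 in untreated and 10.73, 10.65 and 10.80 in aspirin-treated EG110 cells, and 12.27, 12.32 and 12.56 in untreated and 12.20, 12.29 and 12.68 in aspirin-treated EG103 cells. The groups did not overlap in EG110 and overlapped in EG103, and the difference was -2.66 (SE 0.182, adjusted P = 1.3e-06). The third member, *ATO2*, fell in EG110 (-0.77, against 0.11 in EG103). In the list from ethanol to acetyl-CoA, 8 of 17 probe sets were called lower and 0 higher (47.1%, median difference -0.32). The other called members were *ADH2*, the ethanol-oxidizing alcohol dehydrogenase (-1.51 (SE 0.111, adjusted P = 2.43e-06)), *ACS1*, the acetyl-CoA synthetase of growth without glucose (-1.46 (SE 0.0922, adjusted P = 7.51e-07)), the aldehyde dehydrogenases *ALD2* (-1.02) and *ALD5* (-0.80), and *ACS2*, the other acetyl-CoA synthetase (-0.60), whose effect in EG110 alone (-0.56) was not called.

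Acetyl groups leave the cytosol bound to carnitine or through the glyoxylate cycle. *CRC1* (YOR100C), the carnitine carrier of the inner mitochondrial membrane, read 13.18, 13.34 and 13.03 in untreated and 11.10, 10.81 and 11.11 in aspirin-treated EG110 cells, and 13.94, 14.02 and 13.94 in untreated and 14.12, 14.01 and 13.96 in aspirin-treated EG103 cells. Its aspirin-treated EG110 arrays lay below all others, and the difference was -2.24 (SE 0.13, adjusted P = 4.71e-07). Of the 5 carnitine genes, 4 were called lower and 0 higher, the others being the acetyltransferases *YAT2* (-1.49) and *CAT2* (-1.41) and the carnitine permease *AGP2* (-0.91), with *YAT1* not called. In the glyoxylate cycle and gluconeogenesis, 6 of 12 were lower and 0 higher (median -0.59), with smaller differences: the dicarboxylate carrier *DIC1* (-0.83), the peroxisomal citrate synthase *CIT2* (-0.80), isocitrate lyase *ICL1* (-0.74) and PEP carboxykinase *PCK1* (-0.72) led it. Every EG103 effect of the 18 called genes of these 3 lists lay between -0.27 (*ADY2*) and 0.34 (*ALD2*), and none was called.

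In the respiratory chain the calls lay among the NADH dehydrogenases, which moved in both directions. Yeast has no proton-pumping complex I and uses the NADH dehydrogenases Ndi1, on the matrix side, and Nde1 and Nde2, on the outer side of the inner membrane. *NDE2* (YDL085W) read 13.83, 13.89 and 13.77 in untreated and 12.05, 11.87 and 12.21 in aspirin-treated EG110 cells, and 13.05, 13.13 and 13.24 in untreated and 13.27, 13.18 and 13.29 in aspirin-treated EG103 cells and fell in EG110, with a difference of -1.89 (SE 0.115, adjusted P = 5.8e-07). *NDE1* (YMR145C) read 13.15, 12.98 and 13.18 in untreated and 14.02, 13.94 and 13.97 in aspirin-treated EG110 cells, and 13.68, 13.73 and 13.54 in untreated and 13.70, 13.79 and 13.32 in aspirin-treated EG103 cells and rose in EG110, with a difference of 0.92 (SE 0.148, adjusted P = 0.000659). *NDI1* also rose in EG110 (0.72, against -0.10 in EG103, difference 0.82), so that 3 NADH dehydrogenases made up the 3 calls among 35 respiratory genes (8.57%, median 0.14). Of 18 tricarboxylic acid cycle genes 3 were called (16.7%). *IDH1* and *IDH2*, the subunits of NAD-dependent isocitrate dehydrogenase, were higher (0.62 and 0.61), and *CIT3*, a mitochondrial citrate and methylcitrate synthase, was lower (-1.19). *IDH1* kept its call in 20 and *IDH2* in 17 of 25 alternative settings that kept the 1.5-fold threshold, and neither was called without untreated EG110 replicate 2, without untreated EG103 replicate 2, without aspirin-treated EG103 replicate 3 or without replicate 2 of every group. *SHH4* (YLR164W), a relative of the succinate dehydrogenase anchor subunit, fell in EG110 (-2.23, against 0.02 in EG103).

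Genes of glucose sensing and hexose uptake moved in both directions. *HXT4* (YHR092C), a hexose transporter, had the largest positive difference of all probe sets. It read 9.66, 9.29 and 9.18 in untreated and 13.48, 13.54 and 13.68 in aspirin-treated EG110 cells, and 8.88, 8.98 and 8.82 in untreated and 9.36, 9.35 and 9.29 in aspirin-treated EG103 cells. Expression rose 18.2-fold in EG110, while the EG103 effect of 0.44 was not called although its arrays did not overlap, and the difference was 3.75 (SE 0.146, adjusted P = 6.67e-08). *HXT8* and *HXT3* were also higher (1.15 and 0.70), and *HXT14*, *GAL2*, *HXT11*, *HXT1*, *HXT5* and *HXT10* were lower, with differences from -1.61 to -0.74. The list held 4 higher and 6 lower calls of 22 (45.5%). These became 2 and 1 with the lowest 25% of probe sets left out. That setting took members such as *HXT14*, *GAL2* and *HXT8* out of the test, here and in the lists below. Without replicate 2 of every group the counts were 2 and 4. Hexose transporters are close relatives and 5 of the 22 probe sets of this list match several genes, so that single members may share signal.

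*MIG2* (YGL209W), a glucose-induced repressor, read 8.76, 8.75 and 7.78 in untreated and 11.19, 11.23 and 11.07 in aspirin-treated EG110 cells, and 8.73, 8.11 and 8.54 in untreated and 8.83, 9.10 and 9.10 in aspirin-treated EG103 cells. All 3 aspirin-treated EG110 arrays lay above the other 9, and the difference was 2.18 (SE 0.326, adjusted P = 0.000394). Among 29 regulators of glucose repression, 4 were higher and 4 lower (27.6%), or 3 and 2 with the lowest 25% of probe sets left out. The hexokinase and repression factor *HXK2* (0.82), the repressor *NRG1* (1.09) and *MTH1*, a co-regulator of hexose transporter genes (0.68), stood with *MIG2*. On the other side were *SIP4*, an activator of gluconeogenic genes (-1.41), the repressors *NRG2* (-1.18) and *MIG3* (-0.95), and *REG2*, a regulatory subunit of the phosphatase Glc7 (-0.75), so *NRG1* and *NRG2* differed in opposite directions. In glycolysis, where 3 of 21 were called, *PFK27*, which makes the activator fructose 2,6-bisphosphate, and the pyruvate decarboxylase *PDC5* rose in EG110 (1.37 and 1.12) and the minor pyruvate kinase *PYK2* fell (-1.24). The *PFK27* call was lost without replicate 1 of every group (adjusted P = 0.0719) and that of *HXT8* without replicate 2 (adjusted P = 0.0529).

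**Figure D2:**
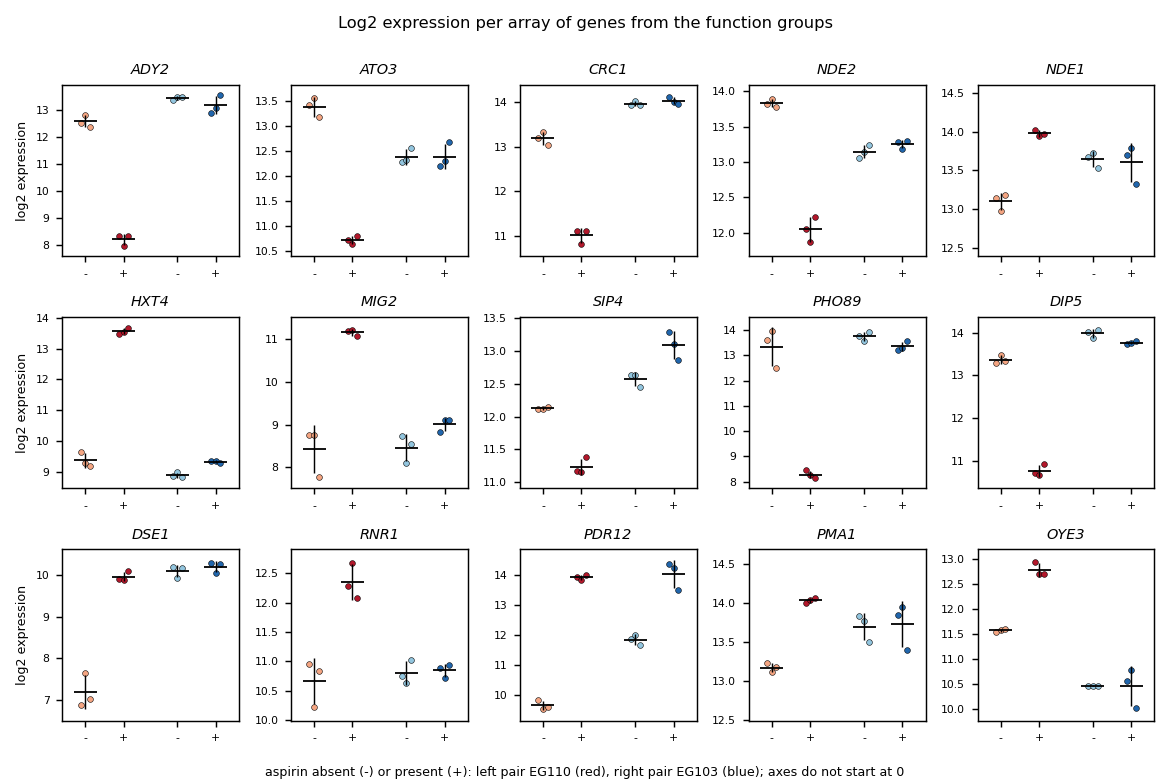
Log2 expression of 15 genes on each array (points), with the group mean (horizontal line) and SD (vertical line, n = 3), for EG110 cells without and with aspirin (red, left pair) and EG103 cells without and with aspirin (blue, right pair). ADY2, CRC1, PHO89 and DIP5 are low only in aspirin-treated EG110 cells, HXT4, MIG2 and RNR1 are high only there, and NDE2 and NDE1 move in opposite directions in EG110.

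Transporters for phosphate, nitrogen and water gave the other large negative differences. *PHO89* (YBR296C), a sodium-coupled phosphate transporter, had the largest difference in either direction. It read 13.59, 13.95 and 12.48 in untreated and 8.45, 8.25 and 8.16 in aspirin-treated EG110 cells, and 13.77, 13.56 and 13.91 in untreated and 13.21, 13.29 and 13.57 in aspirin-treated EG103 cells. It fell 33.2-fold in EG110, where the untreated arrays were themselves spread, while the EG103 effect of -0.39 was not called. The difference was -4.66 (SE 0.396, adjusted P = 7.18e-06). Of 29 phosphate genes, 1 was called higher and 3 lower (13.8%). The counts became 0 and 7 without untreated EG110 replicate 3, and 1 and 1 with the lowest 25% of probe sets left out. *SPL2*, an inhibitor of low-affinity phosphate uptake (-2.22), and *GIT1*, a glycerophosphoinositol transporter (-1.28), went with *PHO89*, and the phosphatase *PHM8* was higher (0.71), a call kept in 11 of 25 alternatives.

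*DIP5* (YPL265W), the permease for aspartate and glutamate, read 13.28, 13.48 and 13.32 in untreated and 10.71, 10.67 and 10.93 in aspirin-treated EG110 cells, and 14.01, 13.87 and 14.07 in untreated and 13.73, 13.75 and 13.80 in aspirin-treated EG103 cells, which gave a difference of -2.38 (SE 0.113, adjusted P = 3.24e-07). The proline permease *PUT4* fell in EG110 (-2.05, against -0.05 in EG103), and so did the general amino acid permease *GAP1* (-1.998, against -0.51), whose call was lost without replicate 2 of every group (adjusted P = 0.155). Of 40 nitrogen genes, 7 were lower and 3 higher (25%). *MEP3*, an ammonium permease, was higher (1.13), with a fall in EG103 (-0.71) and an effect of 0.41 in EG110 that was not called. *MEP1*, another ammonium permease, fell in EG110 (-1.02). Genes for the synthesis of amino acids were called 10 lower and 1 higher of 68 (16.2%, median -0.18), led by the serine hydroxymethyltransferase *SHM2* (-1.31) and the arginine genes *ARG3* (-1.21) and *ARG4* (-1.19), and the single higher one was *ARG8* (0.70). *AQY1* (YPR192W), a water channel, read 11.62, 11.77 and 11.55 in untreated and 9.44, 9.04 and 9.41 in aspirin-treated EG110 cells, and 9.23, 9.01 and 9.66 in untreated and 9.58, 9.64 and 10.30 in aspirin-treated EG103 cells. Its EG110 groups did not overlap, and the difference was -2.89 (SE 0.279, adjusted P = 1.92e-05).

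Sulfur genes split within the pathway. The sulfate permeases are Sul1 and Sul2. *SUL2* (YLR092W) read 10.60, 10.17 and 9.98 in untreated and 11.84, 11.73 and 11.66 in aspirin-treated EG110 cells, and 10.57, 10.90 and 10.37 in untreated and 9.75, 10.01 and 9.76 in aspirin-treated EG103 cells. It rose in EG110 (1.49) and fell in EG103 (-0.77), with a difference of 2.27 (SE 0.22, adjusted P = 1.96e-05). *SUL1* instead fell in both strains (-2.85 in EG110 and -1.20 in EG103), and its lower difference (-1.65) kept the call in 16 of 24 alternatives, losing it without untreated EG110 replicate 1 or 2, aspirin-treated EG110 replicate 3 or replicate 2 of either EG103 group, among others. Of 42 probe sets for sulfate uptake, methionine and cysteine, 8 were higher and 7 lower (35.7%), which became 5 and 4 without replicate 1 of every group and 9 and 4 without untreated EG110 replicate 2. The 8 higher ones included *SUL2* and the sulfate assimilation genes *MET3* (ATP sulfurylase, 0.91), *MET14* (APS kinase, 0.81), *MET5* and *MET10* (sulfite reductase, 1.11 and 0.74) and *MET8* (siroheme synthesis, 0.90), and with them *MET2* (1.06) and the methionine permease *MUP3* (0.87). In EG103 their effects ran from -0.77 to -0.14, all below 0. The lower ones were, besides *SUL1*, the genes of S-adenosylmethionine uptake, use and synthesis *SAM3* (-1.15), *SAM4* (2 probe sets, -1.07 and -0.997) and *SAM1* (-0.66), with *MET13* (-0.72) and *HOM3* (-0.64).

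The list named iron regulon holds genes that the activators Aft1 and Aft2 switch on when iron is short. It also holds *AFT1* and *AFT2* themselves and other genes of iron handling such as *CCC1* and *FET4*. The list was called 10 higher and 0 lower of 34 (29.4%, median 0.28), and 7 of the 10 fell in EG103. Of the 34, 9 fell and 0 rose in EG103, where 0.857% of all probe sets fell, while 4 rose and 4 fell in EG110. *FIT1* (YDR534C), a cell wall mannoprotein that retains siderophore-bound iron, read 11.85, 11.74 and 11.49 in untreated and 11.90, 12.28 and 11.96 in aspirin-treated EG110 cells, and 12.15, 12.41 and 11.58 in untreated and 11.06, 11.23 and 10.50 in aspirin-treated EG103 cells. The EG103 groups were separate, the gene fell there (-1.12), and the difference was 1.47 (SE 0.309, adjusted P = 0.00374). *FIT2* and *FIT3* also fell in EG103 (-0.85 and -0.80), as did *TIS11*, whose product promotes decay of mRNAs of iron-using proteins (-1.02), and the mitochondrial iron carrier *MRS4* (-0.75). Their EG110 effects, between -0.07 (*FIT3*) and 0.35 (*FIT1*), were not called. *ARN1*, a siderophore transporter, and *FRE5*, a ferric reductase homologue, fell in EG103 and rose in EG110. The iron permease *FTR1* (0.60), its copper supplier *CCC2* (0.62) and the iron-sulfur scaffold *ISU1* (0.62) completed the group.

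Called differences among genes of septum separation were all higher in EG110. *DSE1* (YER124C), a daughter cell protein, read 6.90, 7.66 and 7.04 in untreated and 9.90, 9.89 and 10.08 in aspirin-treated EG110 cells, and 10.18, 9.92 and 10.16 in untreated and 10.28, 10.03 and 10.26 in aspirin-treated EG103 cells. Untreated EG110 cells stood apart from the other 3 groups, which overlapped, and the difference was 2.65 (SE 0.229, adjusted P = 8.11e-06). The same held in sign for all 7 called genes of septum separation, which were the glucanase or glucanase-like genes *SCW11* (1.57) and *DSE4* (1.49), the daughter cell genes *DSE2* (1.94) and *EGT2* (1.42), *SUN4* (1.40) and the chitinase *CTS1* (1.16). All 7 rose in EG110 and none was called in EG103. The list gave 7 higher and 0 lower of 17 (41.2%, median 0.39), and 4 with the lowest 25% of probe sets left out.

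Of 48 cell wall genes, 15 were higher and 4 lower (39.6%, median 0.18). *YPS3* (YLR121C), a yapsin protease anchored at the cell surface, read 11.37, 10.74 and 11.08 in untreated and 13.06, 12.99 and 12.93 in aspirin-treated EG110 cells, and 11.57, 11.61 and 11.50 in untreated and 10.93, 10.90 and 11.08 in aspirin-treated EG103 cells. It went up in EG110 and down in EG103, with a difference of 2.52 (SE 0.173, adjusted P = 1.3e-06). The transglycosidase *CRH1* (1.28), the wall protein *PST1* (1.28), the chitin synthases *CHS1* (1.01) and *CHS3* (0.60), the glucan synthase *FKS1* (0.67) and *SLT2*, the MAP kinase of the cell wall integrity pathway (0.78), were higher. *PIR3* was higher (1.10), with a fall in EG103 (-0.82) and an effect of 0.28 in EG110 that was not called. The lower ones were the mannoproteins *TIP1* (-2.38) and *CWP1* (-0.79), the flocculin *FLO1* (-0.65) and *CRR1* (-0.69), a relative of *CRH1* expressed in sporulation. With only single-gene probe sets kept, 3 lower calls were made, so not all of these values belong to a single gene.

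**Figure D3:**
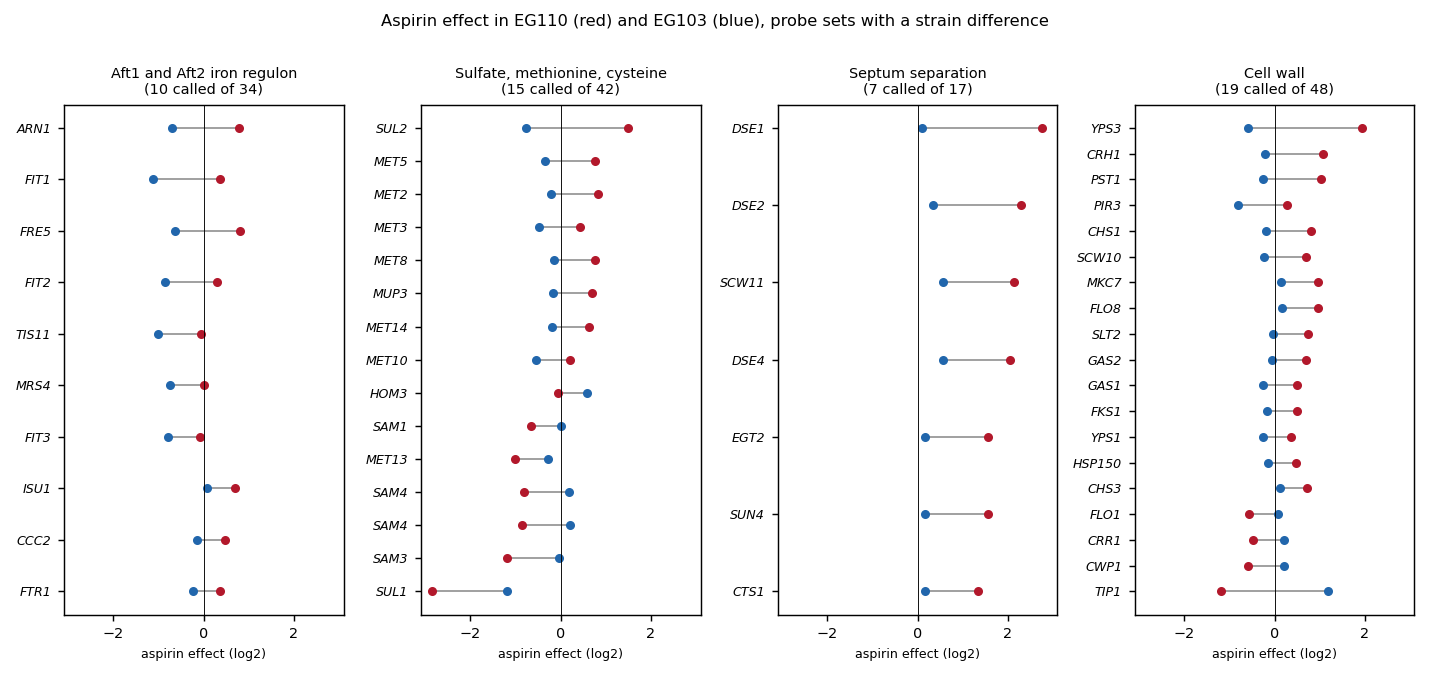
Aspirin effect (log2) in EG110 (red) and EG103 (blue) for the probe sets with a called difference in 4 function lists. In the iron regulon the blue points lie mostly left of 0 (FIT1 at -1.12), in septum separation the red points lie far to the right (DSE1 at 2.76) with blue near 0, and sulfur genes and cell wall genes run in both directions.

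The called differences of DNA replication genes were also higher in EG110. *RNR1* (YER070W), the large subunit of ribonucleotide reductase, read 10.95, 10.21 and 10.83 in untreated and 12.28, 12.68 and 12.08 in aspirin-treated EG110 cells, and 10.74, 10.63 and 11.02 in untreated and 10.88, 10.72 and 10.94 in aspirin-treated EG103 cells. The aspirin-treated EG110 arrays were the 3 highest of the 12, and the difference was 1.63 (SE 0.268, adjusted P = 0.00074). DNA polymerase alpha *POL1* (1.14), the sliding clamp *POL30* (1.11) and the helicase subunit *MCM6* (0.81) followed, and the list gave 10 higher and 0 lower of 52 (19.2%, median 0.23), or 6 and 1 without untreated EG103 replicate 3. Of 33 cell cycle genes, 9 were higher and 2 lower (33.3%). The G1 cyclins *CLN1* (0.72) and *CLN2* (1.02), the Pho85 cyclins *PCL1* (1.33) and *PCL2* (1.06) and the S-phase cyclin *CLB6* (1.09) were among the higher ones, and the mitotic cyclins *CLB1* (-1.07) and *CLB2* (-0.60) were the lower ones. With the lowest 25% of probe sets left out, 3 higher and 0 lower calls were made among cell cycle genes.

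In a list that joins the response to weak acids with drug export, 9 of 37 probe sets were higher and 4 lower (35.1%). *PDR12* (YPL058C), the exporter of weak acid anions, read 9.84, 9.54 and 9.61 in untreated and 13.92, 13.83 and 14.004 in aspirin-treated EG110 cells, and 11.87, 12.004 and 11.65 in untreated and 14.36, 14.23 and 13.50 in aspirin-treated EG103 cells. It rose 19.1-fold in EG110 and 4.56-fold in EG103, to means of 13.92 and 14.03, from untreated means of 9.66 and 11.84, and the difference was 2.07 (SE 0.257, adjusted P = 0.000111). *PDR12* was 1 of only 3 higher probe sets that were called in the same direction in both strains, the others being *SKS1* (0.98), a protein kinase, and *YKR015C* (0.68), both named after their values were seen. The polyamine exporters *TPO2* (1.49), *TPO3* (1.08) and *TPO4* (0.97), *HRK1*, a kinase that activates the proton pump (0.85), and the exporters *QDR2* (0.79) and *SNQ2* (0.61) were higher. The proton pump itself split: *PMA1* (YGL008C), the main isoform, read 13.23, 13.11 and 13.18 in untreated and 13.997, 14.04 and 14.07 in aspirin-treated EG110 cells, and 13.83, 13.77 and 13.50 in untreated and 13.85, 13.95 and 13.40 in aspirin-treated EG103 cells, with a difference of 0.83 (SE 0.176, adjusted P = 0.00383), while the minor isoform *PMA2* had a difference of -2.68.

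Oxidant defence genes were called 5 higher and 4 lower of 41 (22%, median -0.03). The NADPH oxidoreductases *OYE2* and *OYE3* rose in EG110 (1.14 and 1.21) with EG103 effects of 0.01 and -0.01. *OYE3* (YPL171C) read 11.53, 11.58 and 11.59 in untreated and 12.94, 12.70 and 12.70 in aspirin-treated EG110 cells, and 10.46, 10.45 and 10.46 in untreated and 10.56, 10.78 and 10.01 in aspirin-treated EG103 cells, so that untreated EG110 cells were already above both EG103 groups, and the difference was 1.22 (SE 0.209, adjusted P = 0.000948). The glutaredoxin *GRX8* (0.95) and sulfiredoxin *SRX1* (0.79) were higher too. *GTO3*, a glutathione transferase, was higher through a fall in EG103 (-1.41, against -0.20 in EG110). The lower ones were the peroxiredoxins *TSA2* (-1.28) and *DOT5* (-0.73), the thiol peroxidase *HYR1* (-0.68) and the glutathione transferase *GTT1* (-0.98).

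Of 48 genes of low oxygen and of sterol supply, 13 were called lower and 2 higher in EG110 (31.2%, median -0.24). *TIR1* (YER011W), a wall mannoprotein of anaerobic cells, read 12.92, 12.50 and 12.79 in untreated and 11.46, 11.47 and 11.06 in aspirin-treated EG110 cells, and 10.30, 10.14 and 10.66 in untreated and 11.21, 11.22 and 11.36 in aspirin-treated EG103 cells. The EG110 and EG103 groups moved toward each other, and the difference was -2.31 (SE 0.209, adjusted P = 1.09e-05). *TIR3* (-1.79), *TIR4* (-0.73), the hypoxic translation factor *ANB1* (-1.64), the sterol importers *PDR11* (-0.89) and *AUS1* (-0.85), and the sterol synthesis genes *ERG28* (-0.87), *ERG24* (-0.77), *ERG13* (-0.69) and *HMG1* (-0.68) were lower. *ROX1*, the repressor of hypoxic genes, rose in EG110 (1.497, against 0.40 in EG103, difference 1.09 (SE 0.0955, adjusted P = 8.98e-06)), and *HAP1*, the heme-responsive activator, was lower (-0.61). Among phospholipid genes 4 of 25 were called, all lower, or 2 with the lowest 25% of probe sets left out. The 4 included *INO1*, which makes inositol phosphate (-0.86), and *OPI3*, a phosphatidylethanolamine derivative methyltransferase (-0.85).

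Among general stress genes the largest differences were lower in EG110. *SPG4*, a gene of stationary phase, and *SNO1* and *SNZ1*, adjacent genes for vitamin B6 synthesis, fell in EG110 (-2.35, -2.16 and -2.19) with EG103 effects of -0.32, -0.23 and -0.26. They were 3 of the 4 lower probe sets among 33 (15.2% called), *SIP18* being the other (-0.83, through a rise in EG103 of 0.87), and the stress activator *MSN4* was higher (0.74). In trehalose and glycogen metabolism 3 of 22 were called (13.6%), and in metal handling other than iron 2 of 19, the zinc transporter *ZRT2* (-1.27) and the copper transporter *CTR3* (-1.24), both lower. In glycerol metabolism the dihydroxyacetone kinase *DAK2* rose in EG110 (2.12, against 0.19). The machinery of protein synthesis and breakdown gave calls below the overall share: 3 of 150 cytosolic ribosomal protein probe sets (2%), 2 of 93 ribosome biogenesis genes (2.15%), 0 of 75 genes matched as mitochondrial ribosomal proteins and 0 of 33 proteasome genes. The ribosome biogenesis count rested on single arrays, with 5 higher and 1 lower without untreated EG110 replicate 2, 0 and 4 without untreated EG110 replicate 3, 2 and 2 without aspirin-treated EG103 replicate 3 and 2 and 5 without replicate 3 of every group. The count of cytosolic ribosomal proteins was 1 without replicate 1 or replicate 2 of every group, and that of mitochondrial ones reached 1 in some alternatives. Differences of the proteasome genes stayed between -0.20 and 0.29.

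**Figure D4:**
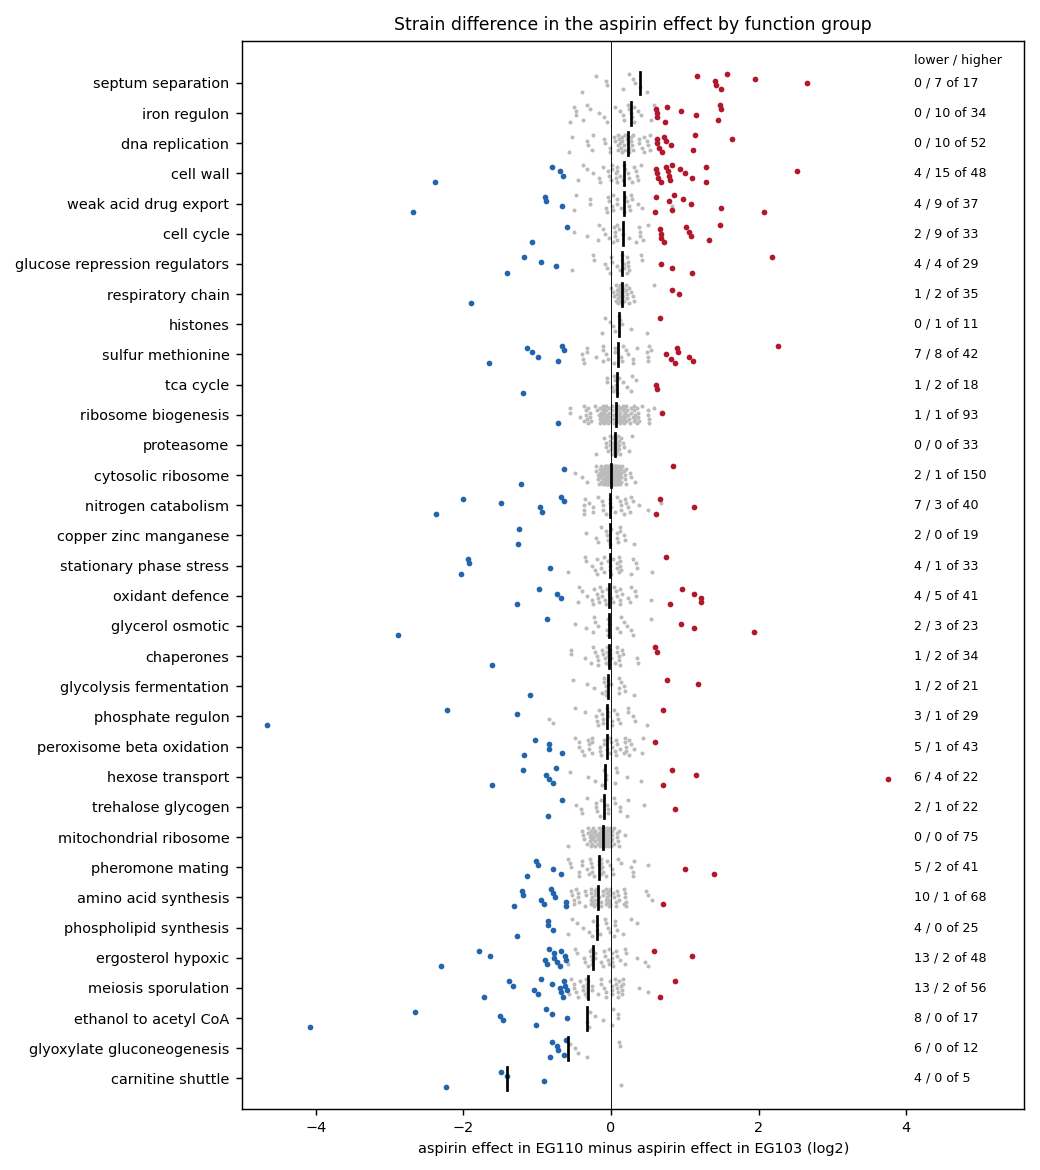
Difference between the strains in the aspirin effect (log2, EG110 minus EG103) for every probe set in 34 function lists, ordered by the list median (black bar), with called higher differences in red, called lower ones in blue, and the counts of lower and higher calls at the right. Septum separation (median 0.39) and the iron regulon (0.28) stand at the top, the carnitine shuttle (-1.41) at the bottom, and ribosomal and proteasome genes near 0.

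Of the 662 called probe sets, 433 belong to none of these lists. The largest positive one was *SET6* (YPL165C), a SET-domain protein, which read 6.42, 6.25 and 6.08 in untreated and 8.93, 8.90 and 8.84 in aspirin-treated EG110 cells, and 5.56, 5.16 and 5.34 in untreated and 5.26, 4.99 and 5.21 in aspirin-treated EG103 cells. It rose 6.23-fold in EG110 with separate groups. Its EG103 means (5.35 and 5.15) both lay below 5.39, the level under which 95% of single array values of probe sets without an *S. cerevisiae* gene fell. No effect could therefore be measured in EG103, and the fitted difference of 2.84 (SE 0.154, adjusted P = 3.5e-07) compares the rise in EG110 with a level not above background. *TDA6* (2.23), *YDR222W* (2.19), *YAL037C-A* (2.21) and the zinc finger regulator *COM2* (2.02) were also among the 12 largest, most of them with no well known role. On the negative side stood *BOP2* (-2.52) and *YLR012C* (-2.50). *BOP2* (YLR267W) read 11.83, 12.30 and 11.99 in untreated and 9.22, 9.18 and 9.26 in aspirin-treated EG110 cells, and 12.76, 12.76 and 12.68 in untreated and 12.35, 12.46 and 12.50 in aspirin-treated EG103 cells, so that its aspirin-treated EG110 arrays lay below the other 9.

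A smaller set of differences had an effect called in EG103 only, 30 lower and 14 higher, and was described after its values were seen. The EG110 effect of such a gene could still go the other way below the fold threshold, as for *CTR3* (-0.46). *MGA1* (YGR249W), which encodes a protein related to heat shock factor, read 9.33, 8.87 and 9.30 in untreated and 8.69, 8.80 and 9.24 in aspirin-treated EG110 cells, and 9.01, 8.23 and 9.12 in untreated and 10.32, 10.28 and 11.08 in aspirin-treated EG103 cells. It rose in EG103 (1.78) with an EG110 effect of -0.26, and the difference was -2.04 (SE 0.37, adjusted P = 0.00148). The meiotic telomere gene *NDJ1* (1.51 in EG103, 0.46 in EG110), the agglutinin genes *SAG1* (0.94) and *AGA1* (1.04), *CTR3* (0.78) and the ribosomal protein gene *RPS9A* (0.89, with a difference not called without replicate 1 of every group, adjusted P = 0.0513) rose in EG103 as well. *BIL2* was called upward in both strains and more so in EG103 (2.22, against 1.01 in EG110), the only lower difference with a rise in both.

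For 20 probe sets (0.35% of those tested) the aspirin effect was called in both strains with opposite signs. Only 64 probe sets were called in both strains at all, and the other 44 moved in the same direction. All 20 also had a called difference, with adjusted P of at most 0.00113. In 19 of the 20 the aspirin-treated and untreated arrays overlapped in neither strain (25.2% of all probe sets, and 62% in EG110 and 39% in EG103 taken singly), which calls made on the same arrays largely fix, and each lists 1 gene. The count was 16 to 22 with any 1 array left out. It was 18 without replicate 3 of each group, 11 without replicate 2 and 3 without replicate 1. In every alternative that held them, all 20 kept opposite signs in the strains. For the 19 with no overlap in either strain, leaving out or reweighting arrays could not change a sign. Kept signs are therefore no added support for them.

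The first 12 fell in EG110 and rose in EG103. *PMA2* (YPL036W), the minor proton pump, read 13.06, 12.96 and 13.06 in untreated and 11.10, 10.996 and 11.05 in aspirin-treated EG110 cells, and 9.77, 9.59 and 10.11 in untreated and 10.38, 10.46 and 10.73 in aspirin-treated EG103 cells. Untreated EG110 cells were highest and the strains moved toward each other, with a difference of -2.68 (SE 0.168, adjusted P = 7.24e-07). *TIP1* (YBR067C), a wall mannoprotein induced by cold and low oxygen, read 12.35, 13.23 and 12.07 in untreated and 11.35, 11.54 and 11.16 in aspirin-treated EG110 cells, and 11.74, 11.32 and 11.87 in untreated and 12.67, 12.70 and 13.10 in aspirin-treated EG103 cells, with a difference of -2.38 (SE 0.355, adjusted P = 0.000394). With *TIR1* and *TIR3* (-0.94 in EG110, 0.85 in EG103), 3 of the 12 belong to the same family of serine-rich mannoproteins. *HXT14*, a hexose transporter relative (-0.82 and 0.79), was the 1 member of these 12 that remained in the set in all alternatives that held it and kept the 1.5-fold threshold. *SSA3*, an Hsp70 chaperone (-1.01 and 0.61), *SPS2*, a sporulation gene (-0.60 and 0.73), *SRL4* (-0.60 and 0.84), *ICS2* (-1.28 and 0.66) and *YBL029W* (-0.91 and 0.70) followed. *YKL096C-B* and *YOR008C-A* were the last of the 12 and were dim, with group means of 4.98 to 6.44 and 4.56 to 5.34. All means of *YOR008C-A* lay below 5.39 and so were not above background, and its opposite calls cannot be read as a measured response.

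The other 8 rose in EG110 and fell in EG103. *NCW2* (YLR194C), a cell wall protein, read 10.68, 10.54 and 10.73 in untreated and 12.001, 12.17 and 11.82 in aspirin-treated EG110 cells, and 11.90, 12.004 and 12.02 in untreated and 11.22, 11.14 and 11.35 in aspirin-treated EG103 cells. Untreated EG110 arrays lay below untreated EG103 arrays and aspirin-treated ones above aspirin-treated EG103 arrays, and the difference of 2.08 (SE 0.124, adjusted P = 4.96e-07) was kept in the set in all 25 alternatives with the 1.5-fold threshold. *CIP1* (YPL014W), an inhibitor of the cyclin-dependent kinase, read 11.46, 10.79 and 11.88 in untreated and 12.28, 12.03 and 11.97 in aspirin-treated EG110 cells, and 11.96, 11.77 and 11.82 in untreated and 10.93, 10.80 and 10.72 in aspirin-treated EG103 cells. Its untreated EG110 arrays spread widely (SD 0.55), and the difference was 1.75 (SE 0.288, adjusted P = 0.000747). *YPS3* and *SUL2*, described above, and *VHS1*, a protein kinase (1.03 in EG110 and -0.63 in EG103), were further members. *ARN1* (YHL040C) read 12.66, 12.07 and 12.44 in untreated and 13.15, 13.28 and 13.10 in aspirin-treated EG110 cells, and 11.82, 11.75 and 11.54 in untreated and 10.97, 11.10 and 10.93 in aspirin-treated EG103 cells, and *FRE5* went the same way (0.79 and -0.65), so 2 of the 8 belong to the iron regulon. *YOX1*, a homeobox repressor of cell cycle genes (0.80 and -0.67), was kept in 15 of 24 alternatives, the fewest of the 20.

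**Figure D5:**
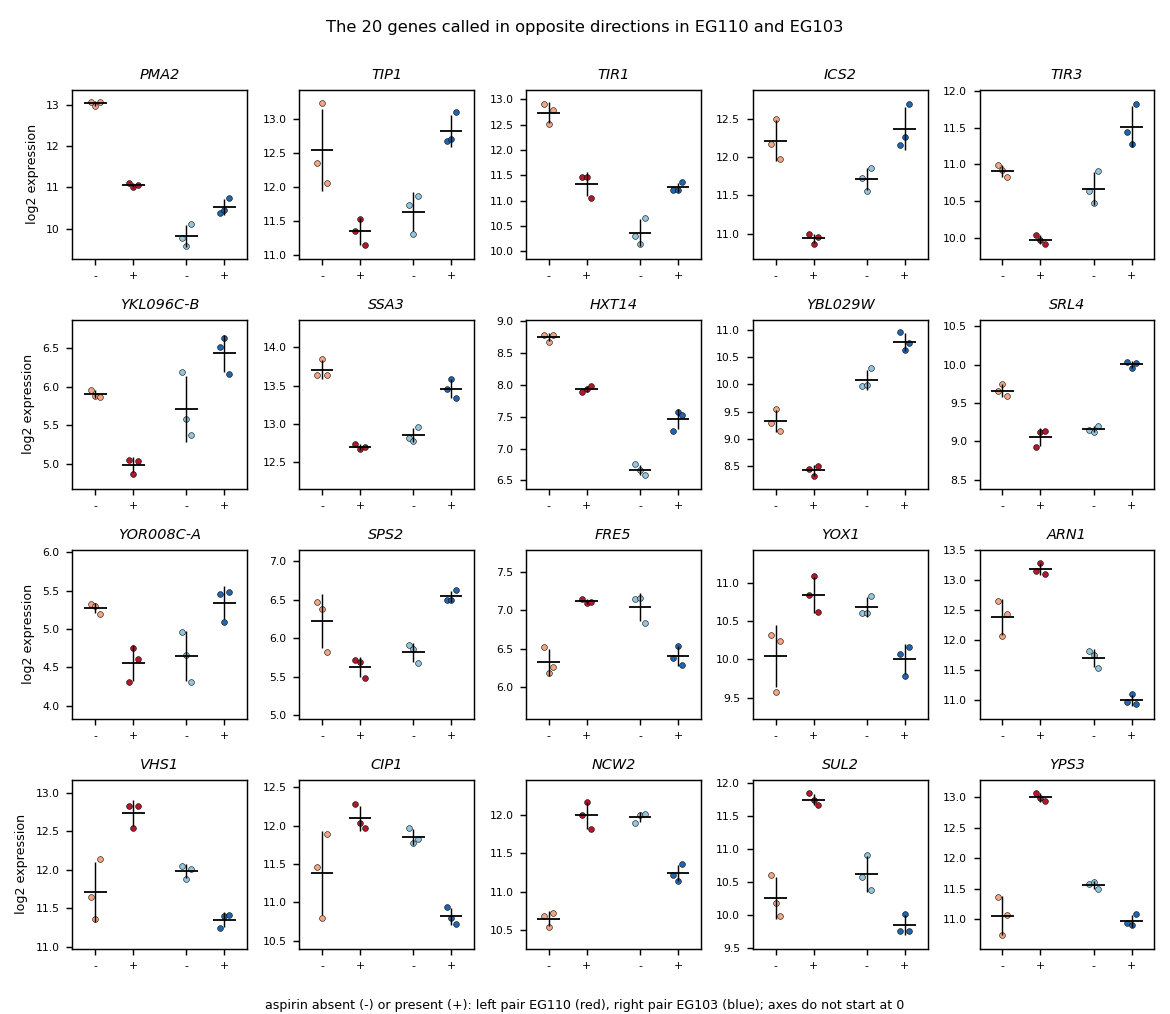
Log2 expression on each array (points) of the 20 genes called in opposite directions, with group mean (horizontal line) and SD (vertical line, n = 3), without and with aspirin in EG110 (red, left pair) and EG103 (blue, right pair). PMA2 to SPS2 fell in EG110 and rose in EG103, and FRE5 to YPS3 did the reverse.

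A wider set required a called difference, opposite signs and an adjusted P below 0.05 in each strain with no fold threshold there. It held 117 probe sets (2.05%), of which 74 fell in EG110 and rose in EG103 by this rule and 43 did the reverse.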

How the data were processed

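Total RNA of 12 cultures was hybridized to Affymetrix GeneChip Yeast Genome 2.0 arrays. The authors made log2 expression values from the scans with AltAnalyze version 2.0.8.1, using robust multi-array averaging, and deposited them in 1 table. Whether normalization ran over both strains at once is not given in the sources used here. The deposited table also holds the authors' own log2 and signed linear fold changes and their P-values, unadjusted and Benjamini-Hochberg adjusted, none of which was used. All 12 array columns were used, and no value was filtered or normalized again.

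One linear model with 4 group means and no block was fitted with limma 3.58.1 in R 4.3.3 (8 residual degrees of freedom, prior 3.73), with default empirical Bayes moderation. The interaction and the 2 aspirin effects were contrasts of this model. No exact test of single genes was run. The script was tested on simulated data. Groups and replicate numbers came from the labels, which call the samples biological replicates. The number of arrays limits the precision.

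The genes named were the 12 largest called differences in each direction among probe sets that list 1 gene and whose arrays did not overlap in at least 1 strain, the 12 opposite calls with the largest smaller effect, the 4 largest called differences of each of 34 lists, and *SOD2*. Other names with values were chosen after their values were seen. The members and the lists were chosen with earlier results of these data known. Lists were matched on symbols and then synonyms, with RefSeq gene names, and 5566 probe sets had their locus in that table. The cell wall list's *MLP1* is the nuclear pore gene of that symbol, which was not called. Alternatives were quantile normalization, median centring, a replicate block, leaving out the lowest 25% of probe sets, 2 other variance models, array weights, other fold thresholds, other sets of probe sets, and leaving out arrays. Plots were drawn with matplotlib 3.10.9.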

Additional observations from a re-analysis of the deposited data

Results flagged for a closer look

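The aspirin effect differed between the strains, by the test of the difference itself, for 662 probe sets. Among them the 20 genes with called effects of opposite sign stood out. With a fall in EG110 and a rise in EG103, the differences (log2, EG110 effect minus EG103 effect) were -2.68 for *PMA2*, -2.38 for *TIP1*, -2.31 for *TIR1*, -1.94 for *ICS2*, -1.79 for *TIR3* and -1.64 for *YKL096C-B*. In the same direction they were -1.61 for *SSA3*, -1.61 for *HXT14*, -1.60 for *YBL029W*, -1.44 for *SRL4*, -1.41 for *YOR008C-A* and -1.33 for *SPS2*, of which *YOR008C-A* was above background (5.39) in no group. With a rise in EG110 and a fall in EG103, they were 2.52 for *YPS3*, 2.27 for *SUL2*, 2.08 for *NCW2*, 1.75 for *CIP1*, 1.66 for *VHS1*, 1.49 for *ARN1*, 1.47 for *YOX1* and 1.44 for *FRE5*. With 3 arrays in each group, no group was large enough for a test of single outlying arrays.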

How the results depend on the processing

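Leaving out the lowest 25% of probe sets gave 401 called differences (192 higher, 209 lower) and 12 opposite calls. All of these were among the 662 and the 20 of the main fit. The share of calls lost was thus larger than the 25% of probe sets left out, so that calls were more frequent among dim probe sets. With no fold threshold there were 1894 (925 higher, 969 lower) and 166 opposite, and at a fold change of at least 2 there were 206 (81 higher, 125 lower) and 1 opposite. Leaving out arrays gave 580 to 716 differences, 249 to 304 of them higher and 327 to 413 lower, and 3 to 22 opposite calls, 3 without replicate 1 and 11 without replicate 2 of every group. A fit with 2 arrays per group has fewer residual degrees of freedom. Without replicate 3 of every group, a fit of the same size, 706 differences and 18 opposite calls were made, so the counts depended on which replicate was left out. Array normalization and variance settings gave 617 to 671 differences and 18 to 20 opposite calls, with 273 higher and 398 lower after median centring. Same-numbered samples of the 2 strains correlated between -0.285 and 0.209 in their deviations from the group means, so the replicate numbers were not shown to pair samples between strains. Within EG110 the untreated and aspirin-treated samples of each number correlated at 0.142 to 0.343. Within EG103 they correlated at 0.0166, 0.485 and 0.45 for replicates 1, 2 and 3. No correlation was computed between samples of different numbers, so pairing by number within a strain was not tested. With the replicate block 662 probe sets were called, 657 of them the same, and 20 opposite. A block within each strain, added after the data were seen, called 678, of which 659 were the same. The naming rule picked 127 probe sets with a called difference. Of these, 109 kept it in all alternatives that kept the 1.5-fold threshold, 18 lost it in at least 1, and 0 changed sign. The differences of other genes in the text, many of them close to the threshold, were not followed in this way. The difference for *SOD2*, which was not called, was -0.0897 with array weights, -0.0139 without untreated EG110 replicate 3 and 0.255 without replicate 1 of every group. Signal over background limits the low probe sets: 5 called ones had no group mean above 5.39, below which 95% of single array values of probe sets without an *S. cerevisiae* gene lay.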

Other observations

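Genes of meiosis and sporulation were called 13 lower and 2 higher of 56 (26.8%, median -0.32). *SPS100*, a spore wall gene (-1.72), *OSW1*, another (-1.39), *SPS2* (-1.33) and the telomere gene *NDJ1* (-1.05) led the lower ones. Many of these probe sets were dim, and with the lowest 25% of all probe sets left out 2 lower and 0 higher calls were made. Mating genes were called 5 lower and 2 higher of 41 (17.1%), or 3 and 1 with the lowest 25% of probe sets left out. The lower ones included the agglutinin genes *SAG1* (-1.14), *AGA2* (-1.02) and *AGA1* (-0.79), with *PRM10* on the other side (1.39). For *SAG1* and *AGA1* the called effect was a rise in EG103 (0.94 and 1.04), and for *AGA2* a fall in EG110 (-0.68).

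Peroxisomal genes were called 5 lower and 1 higher of 43 (14%). The enoyl-CoA isomerase genes *DCI1* (-1.18) and *ECI1* (-1.04), the import co-receptor *PEX18* (-0.84) and the acyl-CoA oxidase *POX1* (-0.84) were lower, while *PEX21*, the paralogue of *PEX18*, was higher (0.60). With the lowest 25% of probe sets left out, 1 lower and 1 higher call were made. In a list of 34 probe sets for chaperones and other heat shock proteins, 3 were called (8.82%). The Hsp70 chaperone gene *SSA3* was lower (-1.61). *HSP30* and *HSP150*, which also stand in the weak acid and cell wall lists, were higher (0.59 and 0.62). *HSP30* kept its call in 10 of 25 alternatives. Of the 4999 probe sets that match no *S. cerevisiae* gene, 4 were called by the same rule when tested with the rest (0.08%).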
